A study of Mus musculus with 8 samples.

Results

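Wnt signalling genes were examined in midbrain dopaminergic neurons of the mouse embryo: the Wnt ligands, their Frizzled (Fzd) receptors, and the secreted R-spondins (Rspo), Dickkopfs (Dkk) and secreted Frizzled-related proteins (Sfrp). Members were chosen by a rule on the symbol alone. No measured value entered the rule, but earlier results of these data were known when it was made. They were 40 of the 23912 gene symbols that probes of the array could be given: 18 Wnt ligands, 10 Fzd receptors, 4 R-spondins, 4 Dickkopfs and 4 Sfrp genes. All embryos were at E14.5 and carried the Pitx3(gfp/+) genotype, in which 1 of the 2 Pitx3 alleles holds Gfp. Pitx3 encodes a homeodomain factor that midbrain dopaminergic neurons make. Every group, the reference included, shares this heterozygous allele, and no wild-type cells were compared. The ventral midbrain was cut into a rostral and a caudal part and broken up with papain, and cells with Gfp were isolated on a cell sorter. There were 4 rostral and 4 caudal pools, each of 5 to 7 embryos with litters spread over the pools, and the comparison of the parts asks how dopaminergic neurons differ along the rostrocaudal axis.

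Each pool was hybridised in Cy3 on its own 2-colour array against 1 common reference in Cy5, a pool of the Gfp-negative cells of the same specimens. A log2 ratio of 1 therefore means a 2-fold higher signal in the sorted cells than in the remaining cells of the ventral midbrain, and a difference of 2 such ratios gives rostral over caudal. The dyes were not swapped, so a dye effect on a single probe cannot be told apart from a difference to the reference, whereas it cancels between the parts. Genes were tested with limma, p-values were adjusted over all genes tested, and a gene was called at an adjusted p below 0.05. All 10 markers of dopaminergic neurons examined were higher in the sorted cells, with a mean log2 ratio over the markers of 3.50 to 3.63 in the rostral and 3.56 to 3.63 in the caudal pools. All 10 tested markers of radial glia and progenitors were lower. Over all genes tested, 34.7% were called higher and 36.9% lower. Of 5 tested markers of microglia and macrophages, 2 were called higher, 0 lower and 3 in neither direction, with a median log2 ratio of 0.20. The sample channel had 62.5% to 70.4% of its probes well above background.

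Wnt ligands bind Fzd receptors together with Lrp5 or Lrp6, and in the best known branch this stabilises beta-catenin, which enters the nucleus and acts with Tcf and Lef factors on target genes. Other Wnts, Wnt5a among them, act mainly through branches that do not need beta-catenin, such as planar cell polarity. R-spondins amplify the signal through Lgr receptors, Dickkopfs block the Lrp co-receptors, and Sfrps bind Wnt ligands outside the cell. In the ventral midbrain, Wnt1 is needed to form the midbrain and its dopaminergic progenitors, and Wnt5a takes part in the differentiation and shaping of dopaminergic neurons.

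Of the 36 members that could be tested against the reference, 27 were called (75.0%), 7 of them higher and 20 lower in the sorted cells. Over all genes tested, 71.6% were called in this comparison, 34.7% higher and 36.9% lower, so the share of members called is close to the background. The members lay further from the reference than the typical gene: 14 of 36 (38.9%) were both called and at least 2-fold apart from it, 3 higher and 11 lower. Of all genes 13.1% were, 3.36% higher and 9.73% lower. The members' median absolute log2 ratio was 0.67, against 0.32 over all genes. In bulk pools, fewer cells expressing a gene and less RNA per cell cannot be told apart, here or for any other gene described. Between rostral and caudal, 8 of the 34 members tested were called (23.5%), against 6.34% of all genes, 5 higher in rostral and 3 higher in caudal, where 3.54% and 2.81% of all genes were. These were Wnt8b, Wnt7b, Wnt7a, Sfrp2 and Rspo2 on the rostral side, and Fzd10, Wnt5b and Wnt3 on the caudal side. The background share rests in part on single pools: over all genes 1145 were called, but 718 without caudal pool 1 and 754 without caudal pool 4.

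The sequences just upstream of these regional genes are shown because these genes differed along the same axis, some toward either end. RefSeq start sites with sequence were held for 26 of the 40 members, and for 6 of the 8 regional genes, not Wnt7b and Rspo2. Each sequence is the 250 bases before the annotated start, read 5′ to 3′ on the gene's own strand, in GRCm38.p6. Capitals mark matches, on either strand, to 3 motifs: the Tcf/Lef core (CTTTG followed by AA, by AT, by TA or by TT), the homeodomain core TAATTA, and TAATCC, the core bound by Pitx and Otx factors. None of the 3 overlaps another in the windows shown. Wnt5b has 3 annotated starts, and the window with a match is shown. The windows at its other starts held none of the motifs.

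Wnt8b, chr19:44493222-44493471, plus strand: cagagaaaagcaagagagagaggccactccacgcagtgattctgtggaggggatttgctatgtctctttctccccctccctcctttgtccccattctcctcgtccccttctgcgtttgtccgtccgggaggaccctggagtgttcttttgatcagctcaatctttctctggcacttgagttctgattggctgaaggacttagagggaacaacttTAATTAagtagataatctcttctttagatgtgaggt
Wnt7a, chr6:91411354-91411603, minus strand: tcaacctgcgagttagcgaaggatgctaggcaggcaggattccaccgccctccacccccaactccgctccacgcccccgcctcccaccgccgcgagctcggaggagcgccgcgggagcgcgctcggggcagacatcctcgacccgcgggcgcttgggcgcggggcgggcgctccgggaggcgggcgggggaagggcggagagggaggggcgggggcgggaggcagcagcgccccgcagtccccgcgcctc
Sfrp2, chr3:83766071-83766320, plus strand: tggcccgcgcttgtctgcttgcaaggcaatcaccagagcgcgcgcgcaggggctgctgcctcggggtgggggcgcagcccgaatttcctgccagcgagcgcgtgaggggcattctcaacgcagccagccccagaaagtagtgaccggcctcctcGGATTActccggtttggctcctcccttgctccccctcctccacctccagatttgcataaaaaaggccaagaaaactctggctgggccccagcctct
Fzd10, chr5:128600856-128601105, plus strand: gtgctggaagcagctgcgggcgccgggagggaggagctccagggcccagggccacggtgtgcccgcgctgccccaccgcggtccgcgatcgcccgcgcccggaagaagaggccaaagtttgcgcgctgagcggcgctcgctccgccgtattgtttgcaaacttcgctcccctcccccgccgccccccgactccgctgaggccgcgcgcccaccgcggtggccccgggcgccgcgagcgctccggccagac
Wnt5b, chr6:119449387-119449636, minus strand: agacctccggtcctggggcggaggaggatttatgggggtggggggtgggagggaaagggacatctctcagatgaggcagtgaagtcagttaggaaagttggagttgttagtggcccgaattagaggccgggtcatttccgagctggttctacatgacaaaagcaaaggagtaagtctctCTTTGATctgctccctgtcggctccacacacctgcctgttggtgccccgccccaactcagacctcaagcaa
Wnt3, chr11:103773925-103774174, plus strand: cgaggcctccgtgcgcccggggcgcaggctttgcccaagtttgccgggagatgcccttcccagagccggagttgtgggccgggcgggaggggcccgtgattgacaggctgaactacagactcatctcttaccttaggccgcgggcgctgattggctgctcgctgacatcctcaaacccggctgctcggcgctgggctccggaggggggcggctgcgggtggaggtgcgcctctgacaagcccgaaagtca

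The Wnt8b window held TAATTA 36 to 31 bases before the start, and was the only one of the 29 windows of member genes to do so (3.4%, against 4.8% of 32851 windows of all genes). The Sfrp2 window held TAATCC on the opposite strand, printed as GGATTA, 96 to 91 bases before the start. TAATCC was in 10.3% of member windows and 6.3% of all windows. The Wnt5b window held CTTTGAT 71 to 65 bases before the start, and a Tcf/Lef core was in 13.8% of member windows against 14.8% of all. The windows of Wnt7a, Fzd10 and Wnt3 held none of these letters. The composition of the printed windows ranged widely. The Wnt8b window had 48.4% G and C with 5 CpG dinucleotides, and the printed Wnt5b window 55.6% with 7. The windows of Wnt5b not printed had 75.2% with 35 and 53.2% with 4. Sfrp2 had 63.6% and 16, Wnt3 68.0% and 22, Fzd10 76.4% and 37, and Wnt7a 77.6% and 34. The median member window had 68.0% G and C and 22 CpG, against 52.4% and 6 over all windows.

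**Figure D1:**
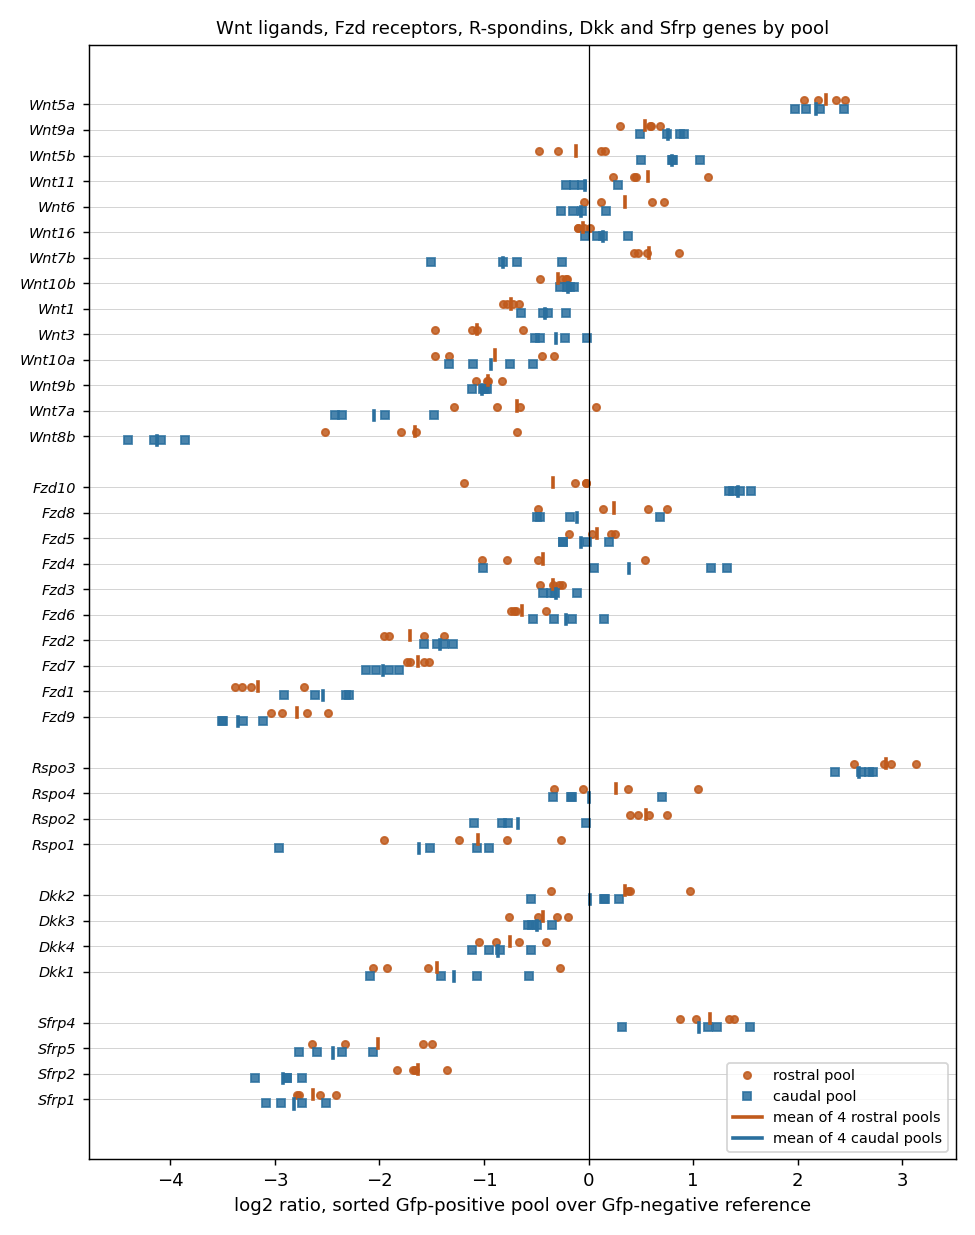
Log2 ratio of each sorted pool to the Gfp-negative reference (x axis) for the 36 members tested against the reference, by family; orange circles are the 4 rostral pools, blue squares the 4 caudal pools, and vertical strokes the mean of each part. Wnt5a, Rspo3, Sfrp4 and Wnt9a lie to the right of 0 in all 8 pools, whereas most Fzd and Sfrp genes lie to the left.

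Among the ligands, Wnt5a was the one most above the reference. Its log2 ratio was 2.45, 2.06, 2.36 and 2.20 in rostral pools 1 to 4 and 2.08, 2.45, 1.97 and 2.21 in caudal pools 1 to 4. All 8 pools lay above the reference and the parts overlapped. The mean was 2.22 (SE 0.08), a 4.67-fold higher level in sorted cells (limma adjusted p = 6.44e-09), and rostral minus caudal was 0.09 with a 95% interval of -0.26 to 0.44. Wnt9a, the next highest, was also above the reference in 8 of 8 pools, at 0.54 ± 0.17 (SD, n = 4) in rostral and 0.76 ± 0.19 in caudal pools (mean over both 0.65, adjusted p = 3.76e-05). Wnt11, which like Wnt5a signals mainly without beta-catenin, reached a mean of 0.27 (adjusted p = 0.0404), positive in 5 of 8 pools. That call was lost without rostral pool 2, 3 or 4 or caudal pool 2, 3 or 4 (adjusted p = 0.0524 to 0.106). Its mean was 0.17 without rostral pool 2 and 0.48 with the scanner software's own processed signals.

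Wnt8b, Wnt7a, Wnt9b, Wnt10a, Wnt3, Wnt1 and Wnt10b were lower in sorted cells than in the reference. Wnt1, the ligand best known from early midbrain development, was below the reference in 8 of 8 pools, with a mean of -0.58 (adjusted p = 2.3e-05). A second, dimmer Wnt1 probe was well above background in 1 sorted pool and on no reference channel, and read close to 0. The mean over both probes was -0.23. Wnt9b had a mean of -0.99 and Wnt10b of -0.24 (-0.13 with the processed signals), both below the reference in every pool. Wnt10a was at -0.91, but its probe was well above background in only 3 of the 8 sorted pools. It was at -0.60 over the 4 pools in the first row of the slide and at -2.51 with the processed signals. Wnt6 (0.14), Wnt16 (0.04) and Wnt7b (-0.12) were not called against the reference, and Wnt7b is taken up again among the regional genes. Wnt16 was called with the processed signals alone (0.37, adjusted p = 0.0366).

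Wnt2, Wnt3a and Wnt8a were not well above background in either channel of any array. Wnt2b was above it in 1 rostral pool and in no caudal pool or reference channel. At E14.5 these 4 ligands could thus not be tested here, and were not shown to be absent. In 4 cases 2 members are neighbours in the RefSeq gene order. The neighbours Wnt3 (-0.69) and Wnt9b (-0.99) and the neighbours Wnt1 (-0.58) and Wnt10b (-0.24) were lower in sorted cells as pairs. Wnt6 (0.14, not called) lies beside Wnt10a (-0.91), and Wnt9a (0.65) beside the untested Wnt3a.

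All 10 receptor genes were measured. Fzd9, Fzd1, Fzd7, Fzd2, Fzd6 and Fzd3 were lower in sorted cells, Fzd10 was higher on average, and Fzd4, Fzd5 and Fzd8 were not called. Fzd9 had the lowest mean ratio of the members tested. Its log2 ratio was -2.93, -2.49, -3.04 and -2.69 in rostral pools 1 to 4 and -3.30, -3.11, -3.51 and -3.50 in caudal pools 1 to 4. The parts did not overlap, with the caudal pools lower. The mean was -3.07 (SE 0.07), an 8.41-fold lower level (adjusted p = 3.96e-10). Rostral minus caudal was 0.56 with an adjusted p of 0.0504, just short of a call. It was called without rostral pool 3 (0.65, adjusted p = 0.0415) and without caudal pool 2 (0.64, adjusted p = 0.0455).

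Fzd1 had a log2 ratio of -2.73, -3.23, -3.31 and -3.38 in rostral pools 1 to 4 and -2.62, -2.30, -2.32 and -2.91 in caudal pools 1 to 4. Every pool was more than 4-fold below the reference, and rostral pool 1 lay among the caudal values. The mean was -2.85 (SE 0.09, adjusted p = 2.2e-09). The difference between the parts ran opposite to that of Fzd9, at -0.63 (adjusted p = 0.0683), and was called without rostral pool 1 (-0.77, adjusted p = 0.0201) or caudal pool 4 (-0.75, adjusted p = 0.0418).

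Fzd7 and Fzd2 are close relatives that act in beta-catenin and polarity signalling. The Fzd7 log2 ratio was -1.57, -1.71, -1.74 and -1.52 in rostral pools 1 to 4 and -1.82, -2.03, -2.13 and -1.90 in caudal pools 1 to 4. Its mean was -1.80 (SE 0.07), with no overlap between the parts but no call (rostral minus caudal 0.33, adjusted p = 0.201). A second Fzd7 probe, that of the annotated table, was well above background in 1 sorted pool and on no reference channel. With both probes averaged the mean was -1.002. For Fzd2 the ratio was -1.96, -1.58, -1.38 and -1.91 in rostral pools 1 to 4 and -1.45, -1.38, -1.29 and -1.58 in caudal pools 1 to 4. It was below the reference in all 8 pools (mean -1.57, SE 0.08), and its second probe gave -1.35. Fzd6 (-0.43) and Fzd3 (-0.32), both known from planar cell polarity, were closer to the reference, Fzd6 at -1.12 with the processed signals. Fzd4, a receptor for norrin as well as Wnts, was the most variable receptor, from -1.02 to 0.54 in rostral and from -1.01 to 1.33 in caudal pools, and Fzd5 and Fzd8 had means of 0.00 and 0.06.

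The R-spondin genes spread to both sides of the reference. Rspo3 was the member highest above the reference, at 2.89, 2.54, 3.13 and 2.83 in rostral pools 1 to 4 and 2.60, 2.36, 2.69 and 2.72 in caudal pools 1 to 4. Every pool was above 2.3 and the parts overlapped. The mean of 2.72 (SE 0.08) is a 6.58-fold higher level in sorted cells (adjusted p = 2.21e-09), and rostral minus caudal was 0.26 with a 95% interval of -0.11 to 0.63. Rspo1 went the other way, at -0.78, -1.96, -1.24 and -0.27 in rostral pools 1 to 4 and -1.07, -2.96, -0.95 and -1.52 in caudal pools 1 to 4. It was below the reference in all 8 pools with a wide spread (mean -1.34, SE 0.24, adjusted p = 0.000637). Rspo2 differed between the parts and is described below with the regional genes, and Rspo4 (0.13) was not called.

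Of the Dickkopf genes, none was higher in sorted cells. Dkk1, an inhibitor that is itself a target of beta-catenin, was at -2.06, -1.54, -1.93 and -0.27 in rostral pools 1 to 4 and -1.41, -1.07, -2.09 and -0.57 in caudal pools 1 to 4. All 8 pools were below the reference, and the spread within each part was larger than the difference between them. Its mean was -1.37 (SE 0.21, adjusted p = 0.000251), with 5 of 8 sorted pools well above background, and -2.80 with the processed signals. Dkk4 (-0.81), above background in 2 of the sorted pools, and Dkk3 (-0.46) were also lower, Dkk4 at -2.16 with the processed signals. Dkk2 (0.18) was not called.

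Each of the 4 Sfrp genes was called against the reference at 2-fold or more, 1 higher and 3 lower. Sfrp4 was higher, at 1.35, 0.88, 1.03 and 1.40 in rostral pools 1 to 4 and 1.55, 0.32, 1.14 and 1.22 in caudal pools 1 to 4. All pools were above the reference, caudal pool 2 by the least, and the mean was 1.11 (SE 0.13, adjusted p = 2.69e-05). Sfrp1 was at -2.57, -2.79, -2.42 and -2.77 in rostral pools 1 to 4 and -2.94, -3.09, -2.51 and -2.74 in caudal pools 1 to 4. The parts overlapped, and the mean of -2.73 (SE 0.08) is a 6.63-fold lower level (adjusted p = 2.53e-09). Sfrp5 was at -2.33, -1.50, -2.65 and -1.58 in rostral pools 1 to 4 and -2.59, -2.35, -2.06 and -2.77 in caudal pools 1 to 4, with a mean of -2.23 (SE 0.14, adjusted p = 3.13e-07). Sfrp1, Sfrp2 and Sfrp5 form a subfamily to which Sfrp4 does not belong, and these 3 genes were the ones lower in sorted cells.

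**Figure D2:**
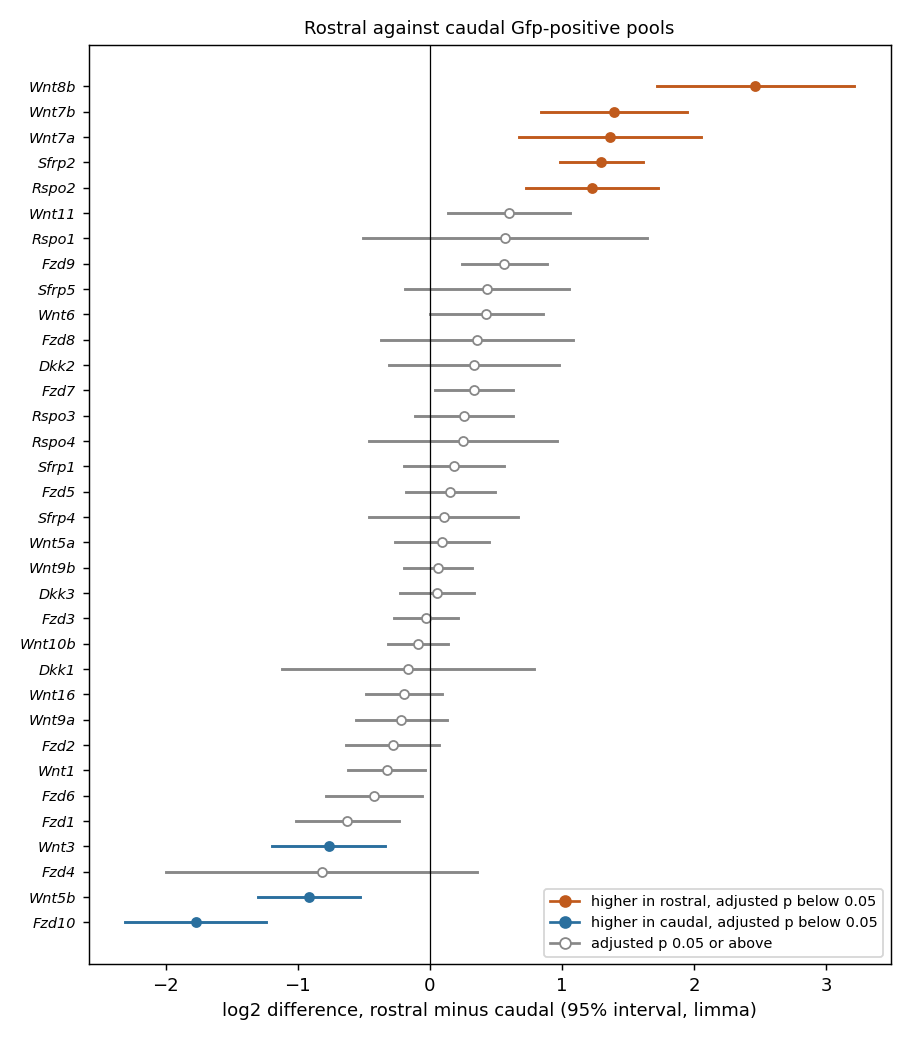
Log2 difference between rostral and caudal pools (x axis, rostral minus caudal, with the 95% interval of the limma fit, n = 4 pools per part) for the 34 members tested. Filled orange points were called higher in rostral and filled blue points higher in caudal; Wnt8b has the largest difference, 2.46, and Fzd10 the largest in the caudal direction, -1.77.

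Wnt8b, a ligand of the beta-catenin branch known from the embryonic forebrain, differed most between the parts. Its log2 ratio was -0.68, -1.79, -1.65 and -2.52 in rostral pools 1 to 4 and -4.09, -3.86, -4.40 and -4.16 in caudal pools 1 to 4. Every rostral pool lay above every caudal pool, and all 8 were below the reference. Rostral minus caudal was 2.46 (SE 0.33, adjusted p = 0.00321), a 5.52-fold higher level in rostral pools, with a 95% interval of 1.72 to 3.21. Against the reference the mean was -2.89 (SE 0.17), or -1.37 averaged over both probes. A second Wnt8b probe, that of the annotated table, was well above background in only 2 rostral pools and read near 0 in both parts. With both averaged the difference was 1.36 (adjusted p = 0.00474). With genes named by the annotated table alone, Wnt8b was therefore not tested, and 7 of 32 members were called between the parts.

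Wnt7b and Wnt7a, a pair of related ligands that act on growing brain vessels and forebrain neurons, were higher in rostral pools by similar amounts from different levels. The Wnt7b ratio was 0.43, 0.47, 0.86 and 0.55 in rostral pools 1 to 4 and -0.82, -0.69, -0.26 and -1.51 in caudal pools 1 to 4. All rostral pools were above the reference and all caudal pools below it. The difference was 1.40 (SE 0.25, adjusted p = 0.0102), 2.63-fold, while the mean over both parts was -0.12 and not called (adjusted p = 0.403). The Wnt7a ratio was -1.29, -0.87, -0.66 and 0.07 in rostral pools 1 to 4 and -1.95, -2.42, -1.48 and -2.36 in caudal pools 1 to 4. It was below the reference in 7 of 8 pools and lowest in the caudal ones. Its difference was 1.37 (SE 0.31, adjusted p = 0.0294), 2.58-fold, and the call was lost without rostral pool 2, 3 or 4 or caudal pool 1, 2 or 4 (adjusted p = 0.0546 to 0.0838).

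Sfrp2, a secreted Wnt-binding protein made by neural progenitors, had a log2 ratio of -1.83, -1.67, -1.68 and -1.35 in rostral pools 1 to 4 and -2.89, -2.88, -2.74 and -3.19 in caudal pools 1 to 4. The pools of each part lay close together, with SDs of 0.20 and 0.19, and the parts were well separated. Rostral minus caudal was 1.30 (SE 0.14, adjusted p = 0.00139), 2.46-fold, and the mean over the parts was -2.28 (SE 0.07). Rspo2, an enhancer of Wnt signalling, was at 0.48, 0.39, 0.75 and 0.57 in rostral pools 1 to 4 and -1.10, -0.77, -0.02 and -0.83 in caudal pools 1 to 4. As for Wnt7b, all rostral pools were above and all caudal pools below the reference. The difference was 1.23 (SE 0.22, adjusted p = 0.0115), 2.34-fold, and the mean over the parts was -0.06 (adjusted p = 0.617).

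In the caudal direction, the receptor gene Fzd10 changed most. Its log2 ratio was -0.03, -0.02, -1.19 and -0.13 in rostral pools 1 to 4 and 1.34, 1.55, 1.38 and 1.44 in caudal pools 1 to 4. The caudal pools lay close together above the reference, 3 rostral pools lay just below it, and rostral pool 3 was lower still. Rostral minus caudal was -1.77 (SE 0.24, adjusted p = 0.00304), a 3.42-fold higher level in caudal pools, and the mean over the parts was 0.54 (adjusted p = 0.00226). Fzd10 was the only one of the 10 receptor genes called between the parts, and its difference from the other receptors was not tested.

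Wnt5b, a relative of Wnt5a, was at -0.47, 0.12, 0.15 and -0.30 in rostral pools 1 to 4 and 0.80, 0.80, 0.50 and 1.07 in caudal pools 1 to 4. All caudal pools were above the reference and above every rostral pool. The difference was -0.92 (SE 0.17, adjusted p = 0.0133), 1.89-fold, and the mean over the parts was 0.33 (adjusted p = 0.00584). Whether this difference differs from that of Wnt5a (0.09) was not tested. Wnt3, a ligand of the beta-catenin branch, was at -1.12, -0.62, -1.47 and -1.07 in rostral pools 1 to 4 and -0.02, -0.47, -0.52 and -0.23 in caudal pools 1 to 4. It was below the reference in every pool, least so in the caudal ones. Its difference was -0.76 (SE 0.19, adjusted p = 0.0462), 1.70-fold, and the call was lost when any pool but rostral pool 2 was left out (adjusted p = 0.0644 to 0.121).

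**Figure D3:**
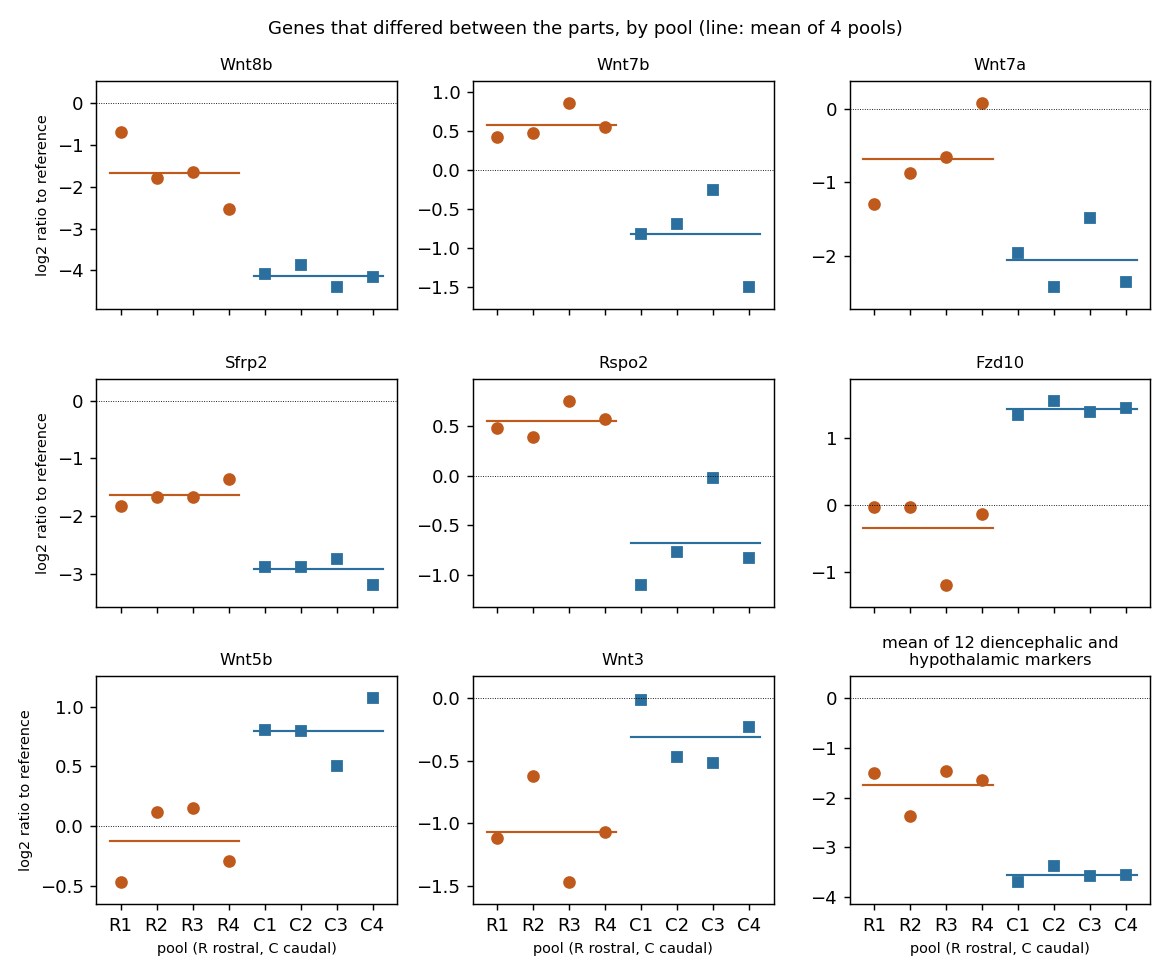
Log2 ratio to the Gfp-negative reference (y axis) in each of the 4 rostral (R, orange circles) and 4 caudal (C, blue squares) pools for the 8 members called between the parts, and the mean of 12 diencephalic and hypothalamic marker genes (last panel); lines are means of 4 pools and the y axes differ. In every panel the rostral and caudal pools are separated, for the markers at -2.36 to -1.46 against -3.70 to -3.38.

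The 4 pools of 1 part lay entirely above those of the other for 11 of the 34 members tested, the 8 called genes and Fzd7, Fzd9 and Wnt1; over all genes tested this held for 12.5%. The median difference of the members was 0.13 and the median absolute difference 0.35, against 0.01 and 0.13 over all genes. Of the 8 called genes, 6 were at least 2-fold apart, 5 higher in rostral and 1 in caudal, where 1.71% of all genes were called at that size (1.01% and 0.698%). The arrays lay in 2 rows of 1 slide, each holding 2 pools of either part. As the pools of the 8 called genes did not overlap between the parts, their direction within a row was fixed in advance. The differences in the first and second row were 2.74 and 2.19 for Wnt8b, 1.21 and 1.59 for Wnt7b, and 1.10 and 1.63 for Wnt7a. They were 1.14 and 1.45 for Sfrp2, 1.37 and 1.09 for Rspo2, -1.48 and -2.07 for Fzd10, -0.98 and -0.86 for Wnt5b, and -0.63 and -0.90 for Wnt3. The series' design text calls each pool a biological replicate made from its own set of embryos.

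Markers of neighbouring regions moved with the parts. Of 11 tested markers of diencephalic and hypothalamic cells, 7 were higher in rostral pools and none in caudal, with a median difference of 2.31. All 12 measured against the reference were lower in sorted cells, and their mean log2 ratio was -2.36 to -1.46 in rostral and -3.70 to -3.38 in caudal pools. Each of these 12 was above background in at least 1 sorted pool. Markers of glutamatergic and red nucleus neurons ran the other way, with 3 of 6 higher in caudal and 1 in rostral pools, and means of -2.95 to -2.24 against -1.62 to -1.34. For the isthmus and rostral hindbrain, 3 of 10 were higher in caudal and 1 in rostral pools (means -0.996 to -0.909 against -0.74 to -0.65). Markers of floor plate progenitors had means of 0.73 to 0.96 in rostral and 1.07 to 1.11 in caudal pools. The part of these cells in the regional differences of the Wnt genes was not tested. Of GABAergic markers, 2 of 7 were higher in caudal and 1 in rostral pools (means -3.09 to -2.85 in rostral and -2.95 to -2.20 in caudal), and of dopaminergic markers 2 of 10 were higher in caudal and 1 in rostral. Endothelial (0 of 7), pericyte and mesenchymal (1 of 8) and microglial markers (1 of 5) gave at most 1 call each, where 6.34% of all genes were called. Both calls were higher in rostral pools, Foxd1 by 1.11 (limma adjusted p = 0.0128) and the macrophage marker Mrc1 by 2.07 (adjusted p = 0.00281). Rostral pool 2 stood apart on the pericyte and mesenchymal markers, at a mean of -1.19 against -2.69 to -2.47 in the other rostral pools.

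Genes of the pathway outside the member families were described from 5 lists. Their counts are to be read against all genes tested, of which 71.6% were called against the reference (34.7% higher, 36.9% lower) and 6.34% between the parts. Among co-receptors and receptor partners, 11 of 14 were called against the reference, a share near that background, 10 of them lower and 1 higher in sorted cells. Antxr1, a membrane receptor for extracellular matrix, was at -4.14, and the glypicans Gpc3 and Gpc4, which bind Wnts at the cell surface, at -2.28 and -1.88 (-1.17 and -1.02 when averaged over their probes). On its brightest probe Gpc4 was well above background in only 1 sorted pool, and in no rostral one. By that probe the rostral level was at least 3.46-fold below the reference. Such a bound sets the brighter group's mean against a floor in the dim group (the lowest well-above-background signal of each array, or the probe's own if higher), and is open to dye bias. With the processed signals Gpc4 was at -4.33. A second Gpc4 probe, well above background in all 8 sorted pools, gave -0.15, so the bound holds for the brightest probe alone. Tspan12, a partner of Fzd4, was at -1.10. Of 13 tested between the parts, 1 was called, which is near the background: Gpc3 was higher in rostral (1.02, SE 0.18, adjusted p = 0.0102; 0.60 with a second probe, above background on no array, averaged in).

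Of the other secreted modulators and genes of ligand processing, 10 of 13 were called against the reference, again near the background, 7 lower and 3 higher in sorted cells. Ndp, which encodes norrin, was at -2.69, the Wnt inhibitor Wif1 at -2.60, and Wls, which carries Wnts to the cell surface, at -1.08. Between the parts, 3 of the 12 tested were called. Cthrc1, a secreted protein that favours polarity signalling, was higher in sorted cells (1.39) and higher in caudal than rostral pools: 2.06 ± 0.11 (SD, n = 4) against 0.73 ± 0.27, a difference of -1.33 (SE 0.15, adjusted p = 0.00182). Sostdc1, a secreted antagonist, was called higher in rostral (adjusted p = 0.0455). On its brightest probe no caudal pool had it well above background, so by that probe rostral was at least 2.92-fold higher. The fitted difference of 1.59 was 3.62 with the processed signals. A second Sostdc1 probe was well above background in all 4 caudal pools and showed a difference of 0.20 with no call. The bound thus holds for the brightest probe alone, and the probes averaged gave 0.89 (adjusted p = 0.202). Apcdd1, an inhibitor at the cell surface that is itself a Wnt target, was higher in caudal (-0.97, adjusted p = 0.0497).

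Inside the cell, 15 of 23 genes of the beta-catenin pathway were called against the reference, 9 lower and 6 higher in sorted cells, with a median ratio of 0.01. That share is below the background of all genes. Ctnnb1, beta-catenin itself, was at -0.64, and the kinase gene Gsk3b was at 0.61, although its 3 probes disagreed (0.61, 0.37 and -0.58, averaging 0.14). The transcription factor genes Tcf7l2 and Tcf7l1 were at -2.96 (-1.79 averaged over its probes) and -2.24. Between the parts, 3 of the 23 tested were called. Tcf7l2 was higher in rostral by 1.23 (SE 0.27, adjusted p = 0.0269), and its other probes showed 0.48 and -0.01 with no call (averaged over its probes 0.56, adjusted p = 0.0831). Higher in caudal were Tcf7l1 (-0.60, adjusted p = 0.0374; -1.01 with the processed signals) and the co-repressor gene Tle1 (-0.83, SE 0.09, adjusted p = 0.00165). A second Tle1 probe gave -0.80, and the third -0.07.

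Feedback and target genes of the beta-catenin branch were lower in sorted cells in all 13 cases tested of 14 listed, with a median of -1.35, where 36.9% of all genes were called lower. Several are counted elsewhere too: Dkk1 is a member, and Lgr5, Rnf43, Notum, Apcdd1, Tcf7 and Lef1 belong to the lists above. Sp5, a direct target, was at -4.25, Ccnd1, the cell cycle gene for cyclin D1, at -2.38, Lef1 at -1.87 and the feedback inhibitor Nkd1 at -1.35 (-0.85 on a second probe, that of the annotated table). Between the parts, 2 of the 13 tested were called, Myc and the Apcdd1 described above. Myc was higher in rostral (0.73, SE 0.15, adjusted p = 0.0191). Ccnd1 and Myc respond to many other signals. The markers of progenitors named at the outset were lower too, from -3.22 to -2.66 in rostral and -3.24 to -2.78 in caudal pools on average, and their part in the low target genes was not tested.

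Of the planar cell polarity genes, 8 of 13 were called against the reference, 5 lower and 3 higher in sorted cells, a share also below that of all genes. Daam2 was at -3.53 and Celsr1 at -3.07, while their relatives Daam1 and Celsr3 were at 0.32 and 0.61. Between the parts, 2 of the 13 tested were called. Prickle1 was higher in rostral (0.85, SE 0.14, adjusted p = 0.00663) at 0.44 ± 0.17 against -0.41 ± 0.26 (SD, n = 4 each). Vangl1 was higher in caudal (-0.78, adjusted p = 0.0469), and a second probe gave -0.83 with no call. All 10 genes called between the parts in these lists kept their direction within both slide rows, Sostdc1 at 2.24 and 0.93 and Vangl1 at -0.41 and -1.14. The rows hold the same pools as the calls, so this is no separate test.

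Several of these 10 calls rest on all pools being present. Those of Apcdd1, Tcf7l1 and Tcf7l2 were each lost on leaving out any of 7 single pools, Apcdd1 keeping its call only without rostral pool 2 and the other genes only without rostral pool 4. Sostdc1 lost its call without rostral pool 2 or 3 or any caudal pool, and Vangl1 without rostral pool 1, 3 or 4 or caudal pool 1, 3 or 4. Myc lost it without caudal pool 1 or 3. Cthrc1, Tle1, Prickle1 and Gpc3 kept their calls whichever single pool was left out, as did the members Wnt8b, Wnt7b, Sfrp2, Rspo2, Fzd10 and Wnt5b.

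**Figure D4:**
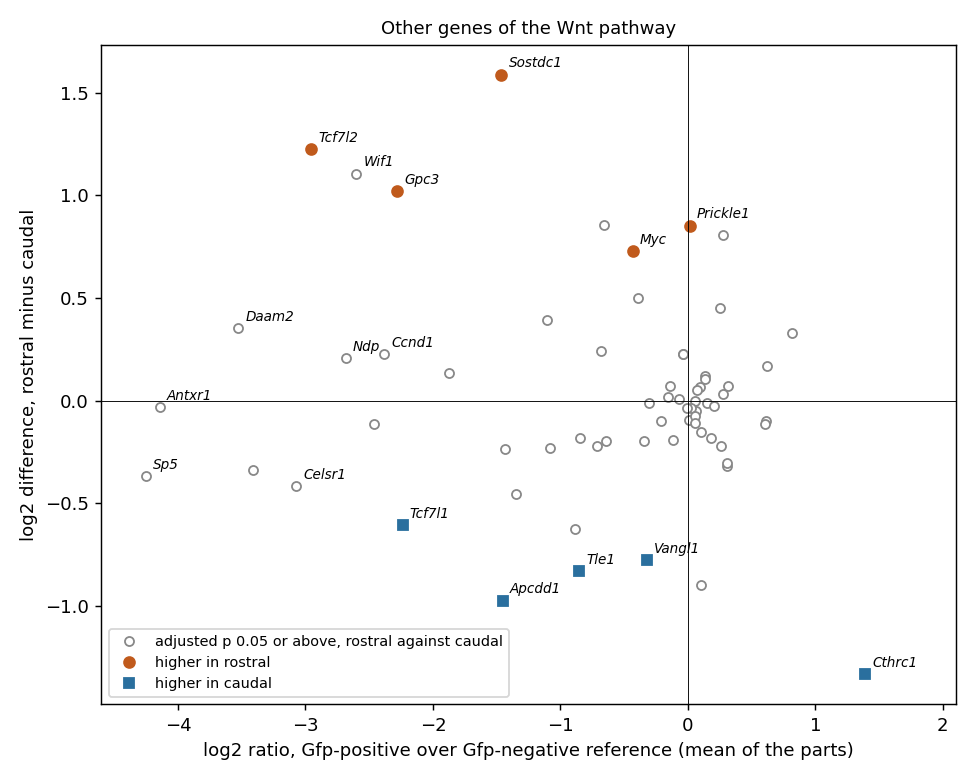
Genes of the 5 pathway lists that were tested between the parts and are not members: mean log2 ratio to the Gfp-negative reference (x axis) against the log2 difference rostral minus caudal (y axis), 1 point per gene. Filled points were called between the parts; Cthrc1 stands alone at the lower right (1.39 and -1.33), and Sp5 and Antxr1 lie furthest left (-4.25 and -4.14).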

How the data were processed

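Per the file headers, the authors ran Agilent Feature Extraction 10.7.3.1 on the scans, and the deposited files hold its median spot intensities, not normalized, and its processed intensities, which had background subtracted, spatial detrending and lowess dye normalization. Other deposited columns hold probe annotation, and flags per spot scored 0 or 1. The submitters' processing notes also name RMA, without saying its role. In the annotated table, 8 value columns name no sample and were not used.

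Median signals (the plan allowed mean or median) were background-corrected by normexp with offset 50, fitted on all spots, and loess-normalized in limma 3.58.1 (R 4.3.3, data.table version 1.17.8), control and outlier spots at weight 0. Probes were named by accession through RefSeq (GRCm38.p6; 27509 probes) or else by the table's symbol (4124), and 24048 of 55681 stayed unnamed. The brightest probe stood for a gene, for Fzd2, Fzd7 and Wnt8b not the probe of the annotated table. A gene was tested against the reference if well above background in either channel on at least 4 of 8 arrays, between parts in the sample channel. The fit used lmFit and eBayes with an intensity trend and Benjamini-Hochberg adjustment, 2-sided, and was tested on simulated data. The reference counts as 1 control sample, so its own spread is left out. All arrays shared 1 slide and 1 scan.

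Values are printed for each pool for members called between the parts or called at least 2-fold from the reference; other pathway genes are named if called between the parts or among the 4 of their list with the smallest p against the reference. The members and lists were chosen with earlier results of these data known. Alternatives covered background correction, normalization, filters, probes, naming, trend, blocks and single pools left out. Deviations from the group means of rostral and caudal pools with the same replicate number correlated at -0.06 to 0.02 across 18505 genes. Pools with different numbers correlated at -0.09 to 0.10, so these values gave no sign of pairing but cannot exclude it.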

Additional observations from a re-analysis of the deposited data

Results flagged for a closer look

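In 72 groups of 4 pools (36 members in either part), 4 had a single pool far from the other 3, where chance alone gives about 1 in 20. Rostral pool 3 had a Fzd10 ratio of -1.19, the others -0.13 to -0.02. In rostral pool 2 the Fzd6 ratio was -0.41, the others -0.74 to -0.69. Caudal pool 3 had a Dkk2 ratio of -0.55, the others 0.15 to 0.29, and caudal pool 2 an Rspo4 ratio of 0.70, the others -0.34 to -0.16.

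For 3 members every rostral pool lay on 1 side of the reference and every caudal pool on the other: Fzd10 (rostral minus caudal -1.77), Rspo2 (1.23) and Wnt7b (1.40). The test between the parts, given with each gene above, is the test of that difference.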

How the results depend on the processing

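Over 20 alternatives, 8 of them leaving out 1 pool, no called change reversed its direction. Members called against the reference numbered 25 to 28 in the full set of pools, 23 within either slide row, and 26 to 27 with 1 pool left out. Between the parts 8 were called; the count was 7 to 9 under the other settings of the full set, 6 to 8 with 1 pool left out, and 5 with the replicate number as a block. The labels state no pairing of same-numbered pools, and that block lost Wnt3, Wnt5b and Wnt7a. Within the first and the second slide row 0 were called by limma, with 7 and 13 at an unadjusted p below 0.05; these fits have 2 pools per part. Over all genes the block called 724 and the rows 0 and 186, against 1145. Fzd9 was also called with slide row as a block (adjusted p = 0.0449), and Wnt3 lost its call with no filter on dim probes or no intensity trend. Signal over background limits Wnt10a, Dkk4, Dkk1 and Fzd6, whose ratios moved by over 1.5 times with the processed signals and which were not well above background in every sorted pool.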
